A study of Homo sapiens with 8 samples.

Results

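Apoptosis is carried out by a small set of interacting protein families, and the genes of 38 such proteins were examined in DAOY cells, an established human medulloblastoma line. The genes were chosen by name from the receptors, adaptors, BCL2 proteins, caspases, inhibitors and nucleases of the pathway. The array annotation named 59 probes for 36 of them, and all 36 were among the 12162 genes kept for testing. No probe was named for BIRC3 and RIPK1, which were not analysed here. A gene was read through its probe of highest mean intensity, and a gene was kept if a probe had a detection p-value below 0.05 on at least 2 of the 8 arrays.

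RNA was hybridised from 5 stable lines carrying the MXD3 plasmid (pHM6-MXD3), 2 stable lines carrying the vector alone (pHM6) and 1 culture of the parental cells, each on 1 Illumina array. Both kinds of stable line grew under 800 µg/ml G418, and no selection is named for the parental cells. MXD3 is a transcription factor that pairs with MAX and represses genes that MYC with MAX activates. The labels give neither the promoter of the plasmid nor whether a numbered line is 1 clone, and every p-value rests on the spread among these samples alone, which may be technical. The design compares the MXD3 lines with the vector lines and with the parental cells, and the 3 vector and parental arrays are called the controls.

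In the intrinsic pathway, BH3-only proteins such as BAD, BID, BIK, BMF and BCL2L11 (BIM) relieve the block that BCL2 and its relatives place on BAK1 and BAX, and cytochrome c then leaves the mitochondrion and assembles the APAF1 apoptosome with caspase-9. In the extrinsic pathway, death receptors recruit FADD, TRADD and RIPK proteins and activate caspase-8 or caspase-10, a step that CFLAR (c-FLIP) blocks. MYC is known to sensitise cells to apoptosis, and MYC and MXD proteins, each with MAX, bind the same DNA letters, CACGTG (the E-box).

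None of the 36 genes passed limma's test in any of the 4 comparisons. BAD had the smallest p of the members for the MXD3 lines against all controls and against the vector lines alone. It was the only member whose 5 MXD3 arrays lay all above the 3 control arrays (2.78% of the members, against 3.84% of all genes). The mean of BAD was 1.48-fold higher in the MXD3 lines than in the controls (limma adjusted p = 0.288). It was 1.63-fold higher than in vector lines (limma adjusted p = 0.587). On a second BAD probe the parental array fell among the MXD3 lines. BMF had the largest differences from the parental array, and CASP1 the largest spread among the MXD3 lines.

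The MXD3 probe itself read 7.47, 7.22, 6.98, 8.08 and 6.18 (log2 intensity) in MXD3 lines 1 to 5, against 6.93 and 6.71 in vector lines and 6.59 in parental cells. Every control was exceeded by MXD3 lines 1 to 4, and the line labelled MXD3 line 5 lay below all 3. With 56 splits of the arrays, an exact permutation test (two-sided) of the mean difference of 0.44 gave p = 0.339. The difference was 0.22 without MXD3 line 4 and 0.70 without MXD3 line 5 (exact permutation p = 0.543 and 0.0571), and 0.37 against the vector lines alone (exact permutation p = 0.524). Whether this probe reads the transgene was not tested, so the directions below are those of the labels. Between 13432 and 14199 of 22184 probes were detected per array, and pairs of arrays correlated at 0.969 to 0.987 across genes. The parental array stood apart in its 28S ribosomal RNA probe (RNA28SN5), at 14.46 to 14.91 in the MXD3 lines, 14.63 and 14.59 in vector lines and 11.40 in parental cells. Of 11 measured markers of cerebellar granule precursors and medulloblastoma, 5 (ZIC2, PAX6, OTX2, GLI2 and VIM) were detected on all arrays, while ATOH1, ZIC1, BARHL1, GLI1 and NES were not kept. None of 3 endothelial markers was kept, and of 5 measured blood markers CD68 alone was detected on every array. All 5 fibroblast markers were kept, with COL1A1 and COL1A2 detected on every array. Of 6 neuronal markers 4 were kept, with TUBB3, MAP2 and SNAP25 detected on every array. Of 5 measured glial markers 2 were kept, with OLIG2 alone detected on every array.

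The promoters of the members were searched for the E-box because it is the site that MXD3 with MAX is known to bind. Promoter windows of 300 bases, from 250 before to 50 after each annotated start, were taken from RefSeq (GRCh38.p14) for the 27 members that the table held, with 49 windows in all. CACGTG, which reads the same on both strands, was found in 4 of the 27 members (14.8%), against 8.77% of all 27305 genes in the table. The related letters CACGCG, searched on both strands (CGCGTG on the other), were found in 5 members (18.5%), against 13.5% of all genes, and no match of either motif overlapped one of the other. Members had more annotated windows per gene than the table as a whole. Counted by window, CACGTG was in 10.2% of the members' 49 windows and 7.26% of all 35116, and CACGCG in 12.2% and 11.4%. Positions are on GRCh38.p14, and sequences run 5′ to 3′ on the strand of the gene. The stretches around the E-boxes of BID, DFFA, DIABLO and TNFRSF21 are shown with CACGTG in capitals, since these 4 are the members that carry it.
BID, chr22:17774057-17774116, strand -: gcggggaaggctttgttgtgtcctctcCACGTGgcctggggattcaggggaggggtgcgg
DFFA, chr1:10472600-10472659, strand -: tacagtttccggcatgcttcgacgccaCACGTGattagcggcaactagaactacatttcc
DFFA, chr1:10472551-10472610, strand -: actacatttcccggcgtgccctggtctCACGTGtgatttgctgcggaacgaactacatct
DIABLO, chr12:122226526-122226555, strand -: tcgtccaccgtcCACGTGctgcagctgctg
TNFRSF21, chr6:47309907-47309966, strand -: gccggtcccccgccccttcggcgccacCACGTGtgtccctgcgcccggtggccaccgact

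In DFFA the 2 matches began 103 and 54 bases before the start, in TNFRSF21 34 bases before it, and in DIABLO 26 bases into the transcript. BID had the same match in 2 overlapping windows. The log2 differences of these 4 members between the MXD3 lines and all controls were -0.02 ± 0.15 (BID), -0.28 ± 0.15 (DFFA), -0.05 ± 0.11 (DIABLO) and 0.17 ± 0.19 (TNFRSF21) (SE, limma), and each 95% interval held 0. CACGCG, on one strand or the other, was carried by BCL2L11, BIRC6, CFLAR, DIABLO and TNFRSF21. The log2 differences from all controls not given above were -0.22 ± 0.23 (BCL2L11), 0.14 ± 0.21 (BIRC6) and 0.50 ± 0.22 (CFLAR) (SE, limma). None of the 5 passed the threshold. CFLAR had the match at 1 place and BIRC6 at 3, and these 2 members were picked for display because their values are described below. The CFLAR match and 1 from BIRC6 are shown with CACGCG in capitals.
CFLAR, chr2:201118551-201118610, strand +: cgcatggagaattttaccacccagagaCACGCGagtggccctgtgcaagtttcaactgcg
BIRC6, chr2:32356933-32356992, strand +: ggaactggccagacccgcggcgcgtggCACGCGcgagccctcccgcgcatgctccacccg

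BAD and BMF are the members on which most of the comparisons below turn, and neither motif was found in either of their 2 annotated windows. The 250 bases before the first annotated start of each are shown.
BAD, chr11:64284705-64284954, strand -: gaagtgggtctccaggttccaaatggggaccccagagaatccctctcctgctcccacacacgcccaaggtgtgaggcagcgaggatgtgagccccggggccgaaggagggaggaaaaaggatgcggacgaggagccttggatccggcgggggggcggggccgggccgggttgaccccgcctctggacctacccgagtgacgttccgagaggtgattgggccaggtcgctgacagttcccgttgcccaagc
BMF, chr15:40108880-40109129, strand -: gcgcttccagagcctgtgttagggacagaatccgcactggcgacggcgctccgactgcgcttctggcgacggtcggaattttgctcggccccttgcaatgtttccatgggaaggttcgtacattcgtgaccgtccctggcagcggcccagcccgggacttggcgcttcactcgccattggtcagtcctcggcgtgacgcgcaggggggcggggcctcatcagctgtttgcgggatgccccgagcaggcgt

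Among all 36 members, 19 had a higher and 17 a lower mean in the MXD3 lines than in the controls, with a median log2 difference of 0.09, against 0.00 over all genes tested. Means were higher for 52.8% of the members and for 50.5% of all genes. At an adjusted p under 0.05, 0 of 36 members were called by limma, against 0% of all genes, and the smallest adjusted p of a member was 0.288. At an unadjusted p under 0.05 there were 3 members (8.33%), all higher, against 11.7% of all genes (6.13% with a higher mean). Leaving out 1 array at a time moved this count between 1 (without MXD3 line 4) and 5 (without MXD3 line 1 or without vector line 2). Arrays did not overlap for 1 member (2.78%), BAD, against 7.98% of all genes (3.84% higher). These shares of members are below or near those of all genes. In bulk RNA, fewer cells expressing a gene and less RNA per cell cannot be told apart.

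Compared with the vector lines alone, 21 members (58.3%, against 50.6% of all genes) had higher and 15 lower means, with a median log2 difference of 0.08, and of -0.01 without vector line 2. At an adjusted p under 0.05, 0 members were called by limma, against 0% of all genes, with a smallest adjusted p of 0.587. At an unadjusted p under 0.05 there were 2 members (5.56%), BAD and TRADD, both higher, against 7.75% of all genes (3.83% higher), and between 1 and 4 when arrays were left out in turn. That count was 1 without vector line 1 and 4 without MXD3 line 1. The arrays of 4 members (11.1%) did not overlap, all 4 higher in the MXD3 lines, against 13.2% of all genes (6.59% higher). These 4 were BAD, TRADD, BCL2L2 and CASP9, and a second CASP9 probe did overlap. The 2 comparisons share the MXD3 and the vector arrays.

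**Figure D1:**
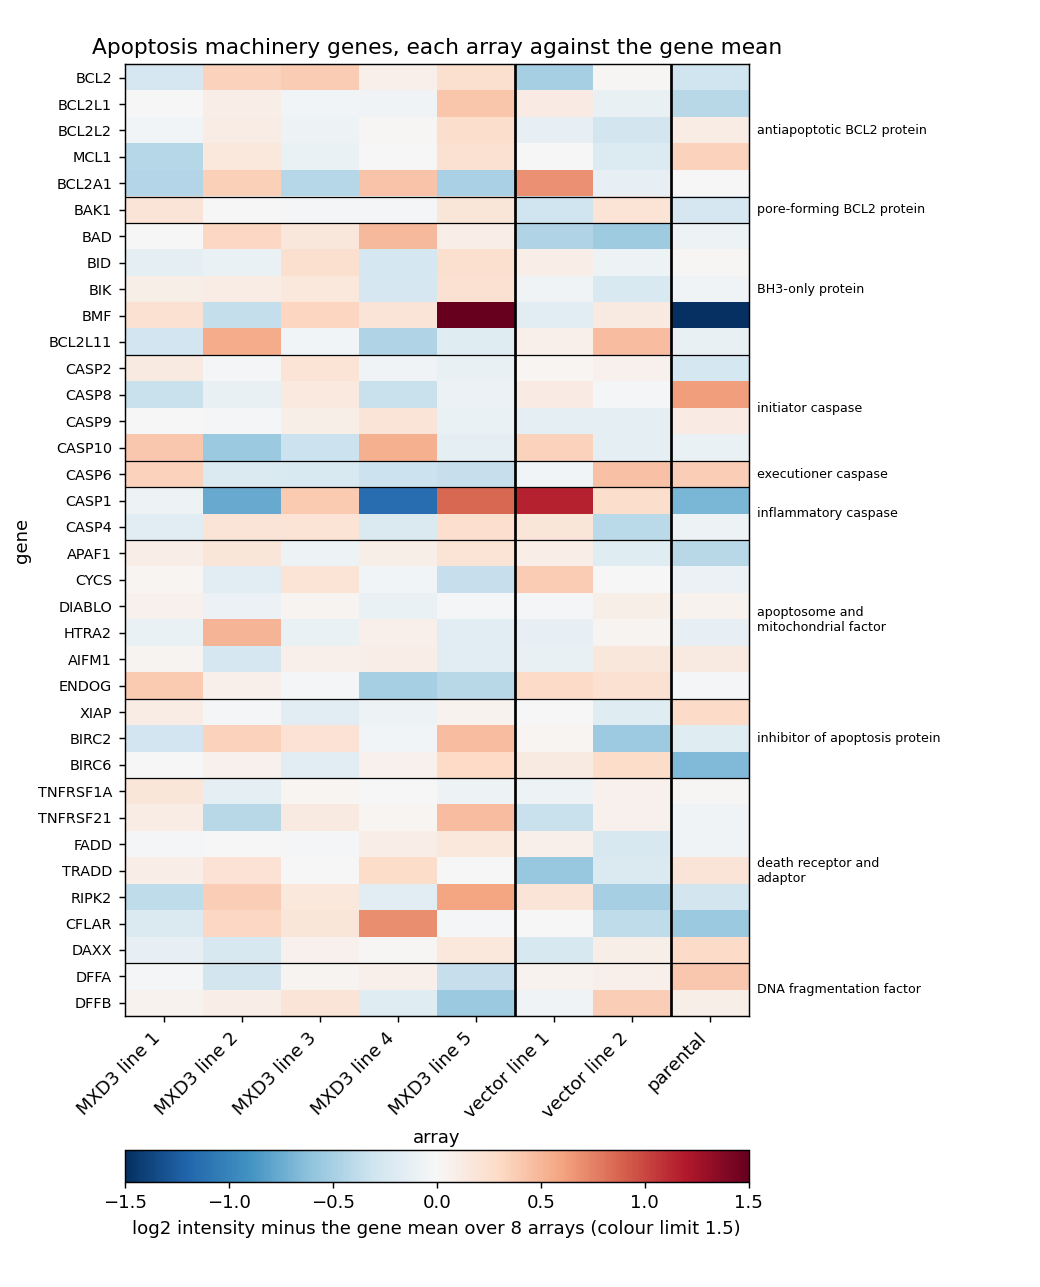
Log2 intensity of the 36 apoptosis genes (rows, grouped by role) on the 8 arrays (columns, MXD3 lines, then vector lines, then parental cells), as the difference from each gene's mean over the 8 arrays. Most cells are pale, and BMF in MXD3 line 5 (8.54) and in parental cells (5.06), and CASP1 across lines, are the strongest colours.

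Members of the death receptor complexes come first. TRADD encodes the adaptor that links TNF receptor 1 to RIPK1, FADD and TRAF2. It read 7.44, 7.56, 7.35, 7.62 and 7.34 in MXD3 lines 1 to 5, against 6.77 and 7.13 in vector lines and 7.54 in parental cells. The MXD3 lines lay above both vector lines and around the parental array. Set against the vector lines, its log2 difference was 0.52 ± 0.16 (SE; 95% interval 0.15 to 0.88), with a limma adjusted p of 0.587, and it was 0.34 without vector line 1. Against all controls it was 0.32 ± 0.18. The second TRADD probe gave 0.55 and 0.45 in these comparisons.

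CFLAR encodes c-FLIP, the caspase-8 relative that blocks signalling at the death receptor. In log2 intensity it read 8.50, 9.03, 8.90, 9.42 and 8.70 in the MXD3 lines, against 8.73 and 8.34 in vector lines and 8.16 in parental cells. MXD3 lines 2, 3 and 4 lay above all controls, and lines 1 and 5 below vector line 1. The log2 difference from the controls was 0.50 ± 0.22 (SE; 95% interval 0.01 to 0.99, limma adjusted p = 0.413). Against the vector lines alone it was 0.38 ± 0.25.

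The other members of this role differed less from the controls. RIPK2, a kinase of NOD receptor signalling, was at 0.31 ± 0.24 (SE) against all controls. TNFRSF21 (death receptor 6) was at 0.17 ± 0.19, the adaptor FADD at 0.11 ± 0.12, TNFRSF1A (TNF receptor 1) at 0.00 ± 0.12 and DAXX, a nuclear protein that also binds FAS, at -0.07 ± 0.16. With the vector lines alone as controls, DAXX was at 0.06 ± 0.17 and TNFRSF1A at 0.00, with a 95% interval from -0.32 to 0.33.

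Initiator caspases showed small differences in both directions. CASP8 encodes the caspase activated at death receptors, and read 7.77, 8.00, 8.25, 7.77 and 8.02 in the MXD3 lines, against 8.23 and 8.08 in vector lines and 8.73 in parental cells. The parental array was the highest of the 8, and the MXD3 and vector lines overlapped. The log2 difference was -0.38 ± 0.18 (SE; 95% interval -0.79 to 0.02, limma adjusted p = 0.451) against all controls. Without the parental array it was -0.19. The dimmer kept CASP8 probe was detected on only 2 of the 8 arrays, and its values of -0.43 against all controls and 0.00 against the vector lines lie near background.

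CASP9, the caspase of the apoptosome, was read at 8.89 to 9.18 in the MXD3 lines, against 8.85 and 8.86 in vector lines and 9.11 in parental cells. On this probe all 5 MXD3 lines lay above both vector lines, by a mean of 0.17 ± 0.14 (SE, limma adjusted p = 0.782). The gap between the nearest arrays was small. The second CASP9 probe differed by 0.19 from the vector lines and overlapped them. It read 6.59 in MXD3 line 1 and 6.77 in MXD3 line 5, against 6.73 and 6.90 in vector lines. CASP2, which responds to DNA damage through the PIDDosome, differed by 0.09 ± 0.13 against all controls and by -0.01 ± 0.14 against the vector lines. CASP10, the close relative of CASP8, differed by -0.05 ± 0.26 and was detected in 3 of 5 MXD3 lines and in all 3 controls.

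**Figure D2:**
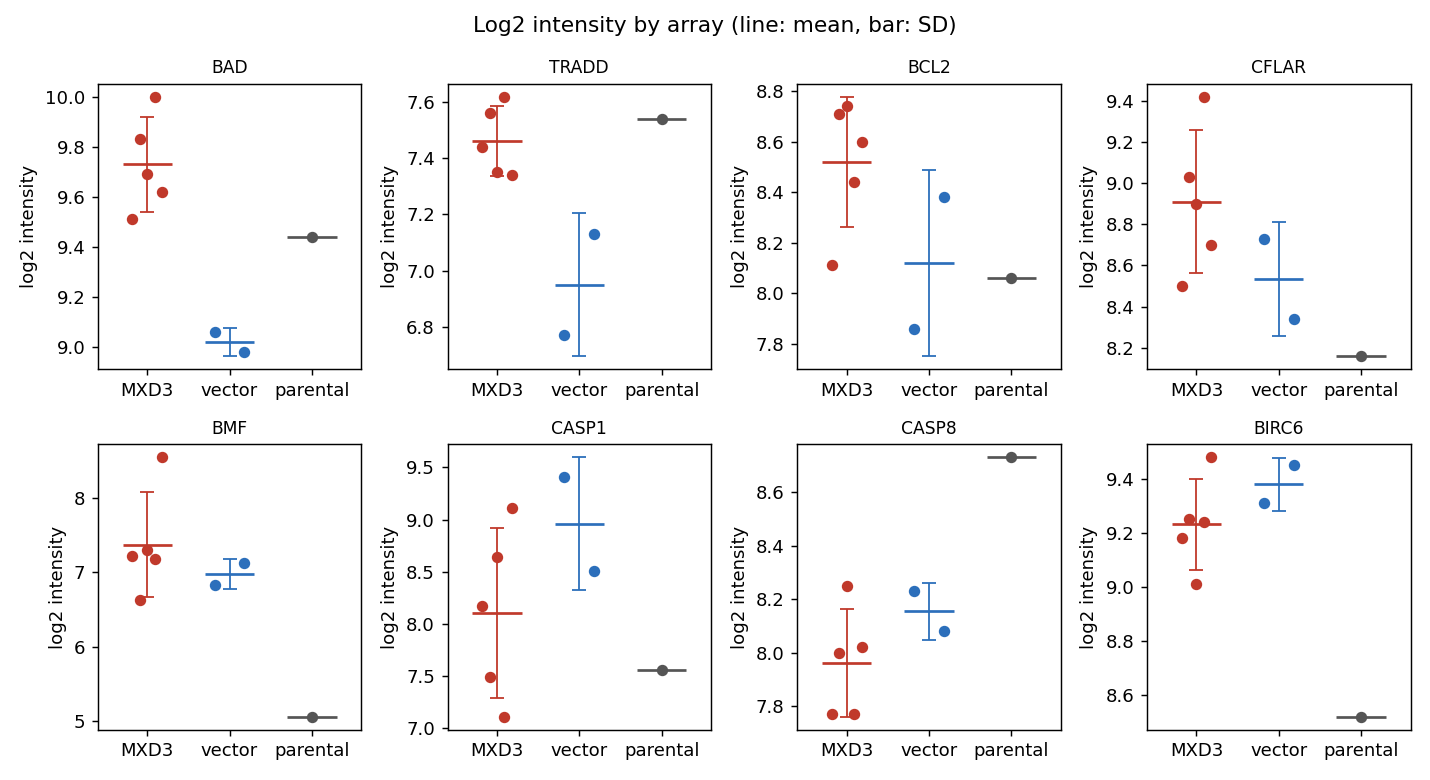
Log2 intensity of 8 members by array in the MXD3 lines (5 points), vector lines (2 points) and parental cells (1 point), with the mean as a line and the SD as a bar where there is more than 1 array; each panel has its own axis, which does not start at 0. BAD lies at 9.51 to 10.00 in the MXD3 lines and at 8.98 to 9.44 in the controls, while the parental array is the lowest for BMF and BIRC6 and the highest for CASP8.

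BAD encodes a BH3-only protein that binds BCL2 and BCL-XL and is kept inactive by phosphorylation in growth factor signalling. The gene lies on chromosome 11 (64269828 to 64284704, GRCh38.p14). It read 9.51, 9.83, 9.69, 10.00 and 9.62 in MXD3 lines 1 to 5, against 9.06 and 8.98 in vector lines and 9.44 in parental cells. Every MXD3 line lay above every control, with MXD3 line 1 and the parental array nearest to each other. The mean was 9.73 ± 0.19 in the MXD3 lines (SD, n = 5) and 9.16 ± 0.24 in the controls (SD, n = 3). The log2 difference of 0.57 ± 0.16 (SE; 95% interval 0.21 to 0.93) had a limma adjusted p of 0.288. With the vector lines alone as controls it was 0.71 ± 0.16 (SE; 95% interval 0.33 to 1.08, limma adjusted p = 0.587). A second BAD probe read 7.75, 8.21, 8.05, 8.55 and 7.76 in the MXD3 lines, against 7.03 and 7.54 in vector lines and 8.10 in parental cells. This probe lay above both vector lines in all 5 MXD3 lines, while the parental array fell among them, and its mean differences were 0.50 and 0.77. The third, detected on 5 arrays, gave 0.22 and 0.30.

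BMF encodes a BH3-only protein that is held at the cytoskeleton in attached cells. It read 7.21, 6.63, 7.30, 7.17 and 8.54 in MXD3 lines 1 to 5, against 6.83 and 7.12 in vector lines and 5.06 in parental cells, where it was not detected. MXD3 line 5 was the highest and the parental array the lowest of the 8. The log2 difference from the controls was 1.03 ± 0.51 (SE; 95% interval -0.11 to 2.18, limma adjusted p = 0.462). Without the parental array it was 0.39.

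The remaining BH3-only genes gave smaller differences from the controls. BIK differed by 0.18 ± 0.14 (SE), BID, which caspase-8 cleaves to join both pathways, by -0.02 ± 0.15, and BCL2L11, which encodes BIM, by -0.22 ± 0.23. BID was also read by a probe detected on 4 arrays, which gave 0.26. BAK1, the pore-forming protein of the list, differed by 0.18 ± 0.15.

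Of the 5 antiapoptotic members, 3 averaged higher in the MXD3 lines than the controls did. BCL2 read 8.11, 8.71, 8.74, 8.44 and 8.60 in the MXD3 lines, against 7.86 and 8.38 in vector lines and 8.06 in parental cells. MXD3 line 1 lay below vector line 2, and the other 4 MXD3 lines above all controls. The log2 difference was 0.42 ± 0.18 (SE; 95% interval 0.01 to 0.83, limma adjusted p = 0.409), and another kept BCL2 probe gave 0.09. BCL2L1 (BCL-XL) differed by 0.22 ± 0.16, and its second probe by 0.46. BCL2L2 (BCL-W) differed by 0.15 ± 0.14, and against the vector lines, which it did not overlap, by 0.26 ± 0.15. MCL1, a short-lived protein of the family, differed by -0.07 ± 0.18, with its second probe at -0.06. BCL2A1 differed by -0.30 ± 0.28 and was detected in 2 of 5 MXD3 lines, 1 of 2 vector lines and not in parental cells.

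**Figure D3:**
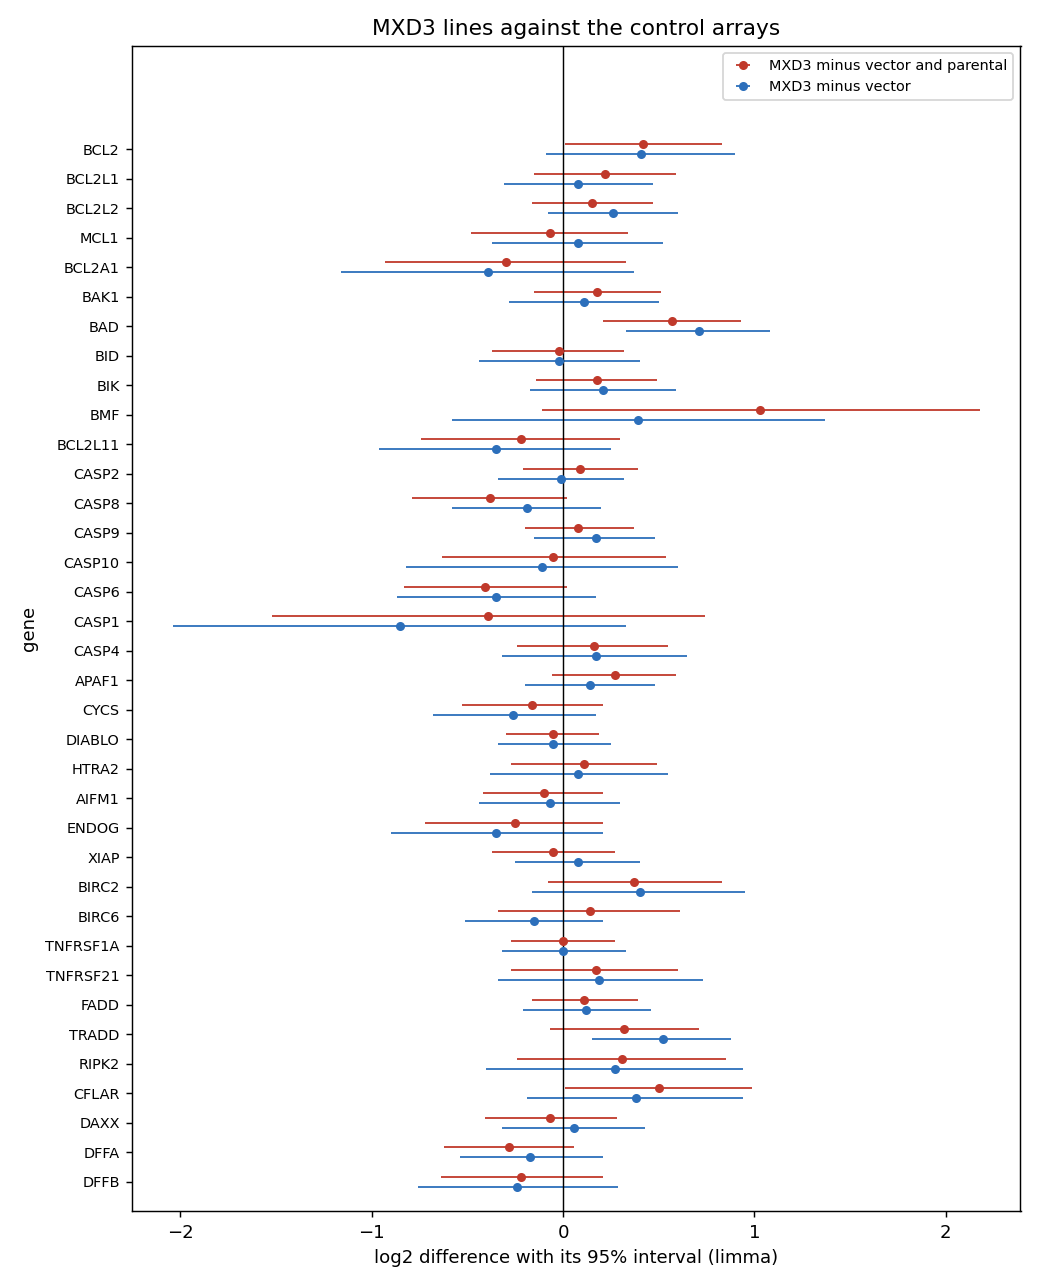
Log2 difference of each apoptosis gene (rows) between the MXD3 lines and all controls (red) and between the MXD3 lines and the vector lines (blue), as points with 95% intervals from limma, unadjusted for the number of genes. The intervals of BAD lie above 0 in both comparisons (0.21 to 0.93 and 0.33 to 1.08), while those of CASP1 and BMF are the widest.

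Mitochondrial and apoptosome factors were close to the controls. APAF1, the scaffold of the apoptosome, differed by 0.27 ± 0.15 (SE) against all controls and CYCS, which encodes cytochrome c, by -0.16 ± 0.16. DIABLO and HTRA2, whose proteins bind and block inhibitors of apoptosis, were at -0.05 ± 0.11 and 0.11 ± 0.17. The nuclease gene ENDOG was at -0.25 ± 0.21 and AIFM1, the apoptosis-inducing factor, at -0.10 ± 0.14. The 3 AIFM1 probes gave 0.13, -0.10 and -0.51, so its direction depended on the probe. The second HTRA2 probe gave -0.05, and the second DIABLO probe gave 0.12 against the vector lines, where the brighter one gave -0.05.

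Inhibitors of apoptosis were represented by 3 genes. BIRC2 (cIAP1), a ubiquitin ligase of TNF receptor complexes, differed by 0.37 ± 0.20 (SE) against all controls, at 9.25 to 10.00 in the MXD3 lines and 8.99 to 9.57 in the controls. XIAP, which binds and blocks caspases directly, differed by -0.05 ± 0.14, and BIRC6, a giant ubiquitin ligase, by 0.14 ± 0.21. With the vector lines alone as controls the sign turned for both, to 0.08 ± 0.14 for XIAP and -0.15 ± 0.16 for BIRC6, whose lowest array was the parental one. None of the 3 separated the MXD3 lines from the controls.

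CASP6, the executioner caspase that cleaves lamins, had a mean 1.33-fold lower in the MXD3 lines than in the controls. It read 9.53, 8.97, 8.95, 8.86 and 8.84 in MXD3 lines 1 to 5, against 9.14 and 9.62 in vector lines and 9.55 in parental cells. MXD3 lines 2 to 5 lay below all controls, and MXD3 line 1 lay among them. The log2 difference was -0.41 ± 0.19 (SE; 95% interval -0.83 to 0.02, limma adjusted p = 0.451), and the second CASP6 probe gave -0.06. DFFB, the nuclease that fragments DNA, and DFFA, its inhibitor and chaperone, differed by -0.22 ± 0.19 and -0.28 ± 0.15.

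CASP1 and CASP4 are the inflammatory caspases of the list. CASP1, which processes interleukin-1 beta, read 8.17, 7.49, 8.64, 7.11 and 9.11 in the MXD3 lines, against 9.41 and 8.51 in vector lines and 7.56 in parental cells. MXD3 lines and controls each covered much of the same range, and the log2 difference of -0.39 ± 0.50 (SE) had a 95% interval of -1.52 to 0.74. Against the vector lines alone it was -0.85 ± 0.52 (SE; 95% interval -2.04 to 0.33, limma adjusted p = 0.718), the largest difference of a member in that comparison, and the arrays overlapped. CASP4, which senses bacterial lipopolysaccharide, read 12.37 to 12.84 in the MXD3 lines and 12.18 to 12.76 in the controls, with a difference of 0.16 ± 0.18. The other CASP4 probes gave -0.05 and -0.35. In all, 14 members had several kept probes, and in 4 of them (AIFM1, BID, CASP4 and HTRA2) the probes differed in sign against all controls. The probes of 6 members did so against the vector lines, with MCL1 at 0.08 and -0.08.

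The spread among the 5 MXD3 lines varied widely between members. The SD of log2 intensity had a median of 0.20 over the 36 members, with quartiles of 0.14 and 0.31, against 0.24, 0.16 and 0.34 over all genes tested. DIABLO (0.07) and FADD (0.08) varied least. CASP1 had the largest SD, 0.82, and ran from 7.11 in MXD3 line 4 to 9.11 in MXD3 line 5. BMF followed at 0.71, and at 0.30 without MXD3 line 5. Line 5 gave the highest value among the MXD3 lines for 15 of the 36 members and the lowest for 9. Line 4 was also the lowest for 9. The shares over all genes were not computed, so these counts may not be particular to the members.

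The other members with a large spread among the MXD3 lines were CASP10, BCL2A1 and RIPK2. RIPK2 read 11.46, 12.22, 12.01, 11.68 and 12.44 in MXD3 lines 1 to 5 (SD 0.40), against 12.04 and 11.35 in vector lines and 11.57 in parental cells. The ranges of the MXD3 and vector lines overlapped. CASP10 read 6.44, 5.48, 5.72, 6.57 and 5.90 in the MXD3 lines, against 6.38 and 5.89 in vector lines and 5.94 in parental cells. BCL2A1 read 5.15, 5.95, 5.16, 6.01 and 5.10 in the MXD3 lines, against 6.27 and 5.47 in vector lines and 5.59 in parental cells. CASP10 and BCL2A1 were below detection on several of these arrays, so part of their range lies near background.

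**Figure D4:**
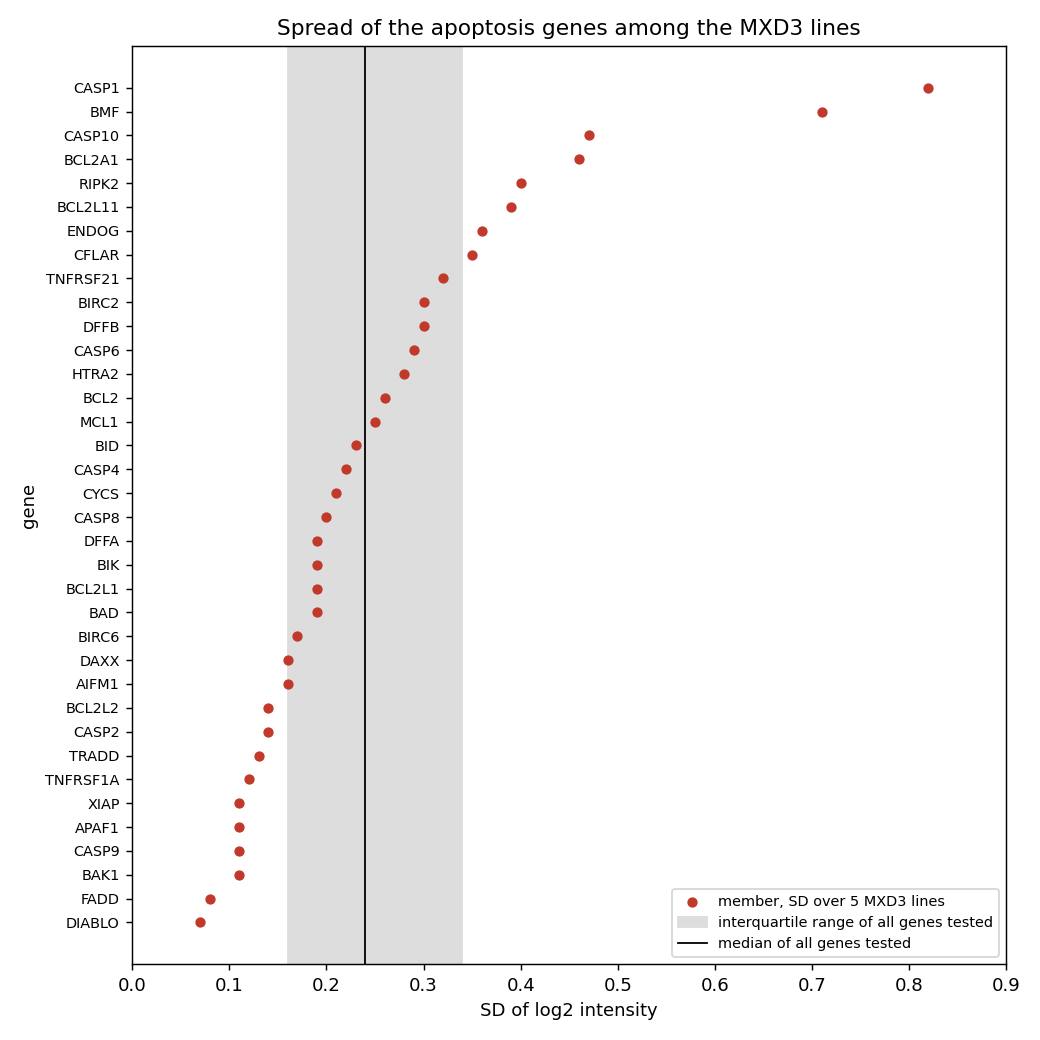
SD of log2 intensity over the 5 MXD3 lines for each of the 36 apoptosis genes (rows, points), with the median (line) and interquartile range (grey band) over all 12162 genes tested. CASP1 (0.82) and BMF (0.71) lie furthest to the right, and the members' median of 0.20 lies inside the band.

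No member passed the threshold between the stable lines and the single parental array. In the 3-group fit the lone parental array was taken to vary as the replicated groups do, and the 2 comparisons with it share that array. In the MXD3 lines against the parental array, 0 members were called by limma at an adjusted p under 0.05, against 0.00822% of all genes, and 6 members (16.7%) had an unadjusted p under 0.05, against 12.9%. Of these, BMF, APAF1, BIRC6 and CFLAR were higher (4 of the 36 members, against 7.42% of all genes) and CASP8 and DFFA lower (2 of 36, against 5.47%). In the vector lines against the parental array, 0 were called, against 0.00822% of all genes, and 4 (11.1%) had an unadjusted p under 0.05, against 7.10%. BMF and BIRC6 were higher (2 of the 36 members, against 4.42% of all genes) and CASP8 and TRADD lower (2 of 36, against 2.68%). Without vector line 1 or without vector line 2 the count of 4 was 2. The parental array lay outside the range of the MXD3 lines for 47.2% of the members and 46.0% of all genes, and outside that of the vector lines for 55.6% and 68.9%. It was the highest of the 8 arrays for 5 members and the lowest for 6. Over the 8 arrays these counts ran from 2 to 12 and from 0 to 7. The share of all genes with the parental array on one side of every stable line was not computed. The median log2 difference of the members was 0.06 in the MXD3 lines and -0.01 in vector lines.

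BMF had the largest difference from the parental array in both kinds of stable line. This rests on 1 of the 3 BMF probes on the array, and the others were detected on 0 arrays. BMF was below detection on the parental array, so means were set against the lowest detected signal there. The MXD3 mean was 3.32-fold above that signal (fitted log2 difference from the parental reading 2.32 ± 0.56 SE, limma adjusted p = 0.185). The vector mean was 2.52-fold above it (1.92 ± 0.63, limma adjusted p = 0.539). These folds are not lower limits, since they leave out the spread among arrays. The fitted 95% intervals began at 1.04 (MXD3 lines) and 0.49 (vector lines). Without background correction the fitted differences shrank to 0.95 and 0.72. The parental reading came from 1 array that also stood apart in 28S ribosomal RNA (11.40), and the part of this in the result was not tested.

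BIRC6 read 9.18, 9.25, 9.01, 9.24 and 9.48 in the MXD3 lines and 9.31 and 9.45 in vector lines, against 8.52 in parental cells. All 7 stable lines lay above the parental array. The log2 difference was 0.71 ± 0.21 (SE, limma adjusted p = 0.221) in the MXD3 lines and 0.86 ± 0.23 (SE, limma adjusted p = 0.452) in vector lines. APAF1 read 10.95, 11.03, 10.78, 10.94 and 11.06 in the MXD3 lines and 10.95 and 10.67 in vector lines, against 10.43 in parental cells. APAF1 likewise lay above the parental array in every stable line, by 0.52 ± 0.19 and 0.38 ± 0.22, and so did CFLAR, by 0.75 ± 0.32 and 0.37 ± 0.36.

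CASP8 was lower than the parental array in all 7 stable lines, with log2 differences of -0.77 ± 0.22 (SE, limma adjusted p = 0.219) in the MXD3 lines and -0.57 ± 0.25 (SE, limma adjusted p = 0.699) in vector lines. DFFA read 10.83, 10.58, 10.90, 10.93 and 10.51 in the MXD3 lines and 10.91 and 10.93 in vector lines, against 11.26 in parental cells. It was at -0.51 ± 0.22 and -0.34 ± 0.24 and on this probe also lay below the parental array in every stable line. The second DFFA probe gave -0.21 and -0.08, with vector line 2 (7.14) above the parental array (7.04). TRADD was at -0.08 ± 0.21 in the MXD3 lines and -0.59 ± 0.23 in vector lines, and its second probe at 0.24 and -0.31. For BAD these values were 0.29 ± 0.22 and -0.41 ± 0.24, and for CASP1, whose MXD3 and vector lines overlapped, 0.54 ± 0.68 and 1.39 ± 0.76. The other BAD probes gave -0.04 and 0.04 in the MXD3 lines and -0.81 and -0.26 in vector lines. A dimmer AIFM1 probe gave -1.10 and -0.88, where the brightest gave -0.18 and -0.11. The dimmer BCL2L1 probe gave 1.08 and 0.93, and the brighter 0.50 and 0.42. Kept probes of 4 members differed in sign between vector lines and parental array. No member passed in the comparison of MXD3 with vector lines.

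**Figure D5:**
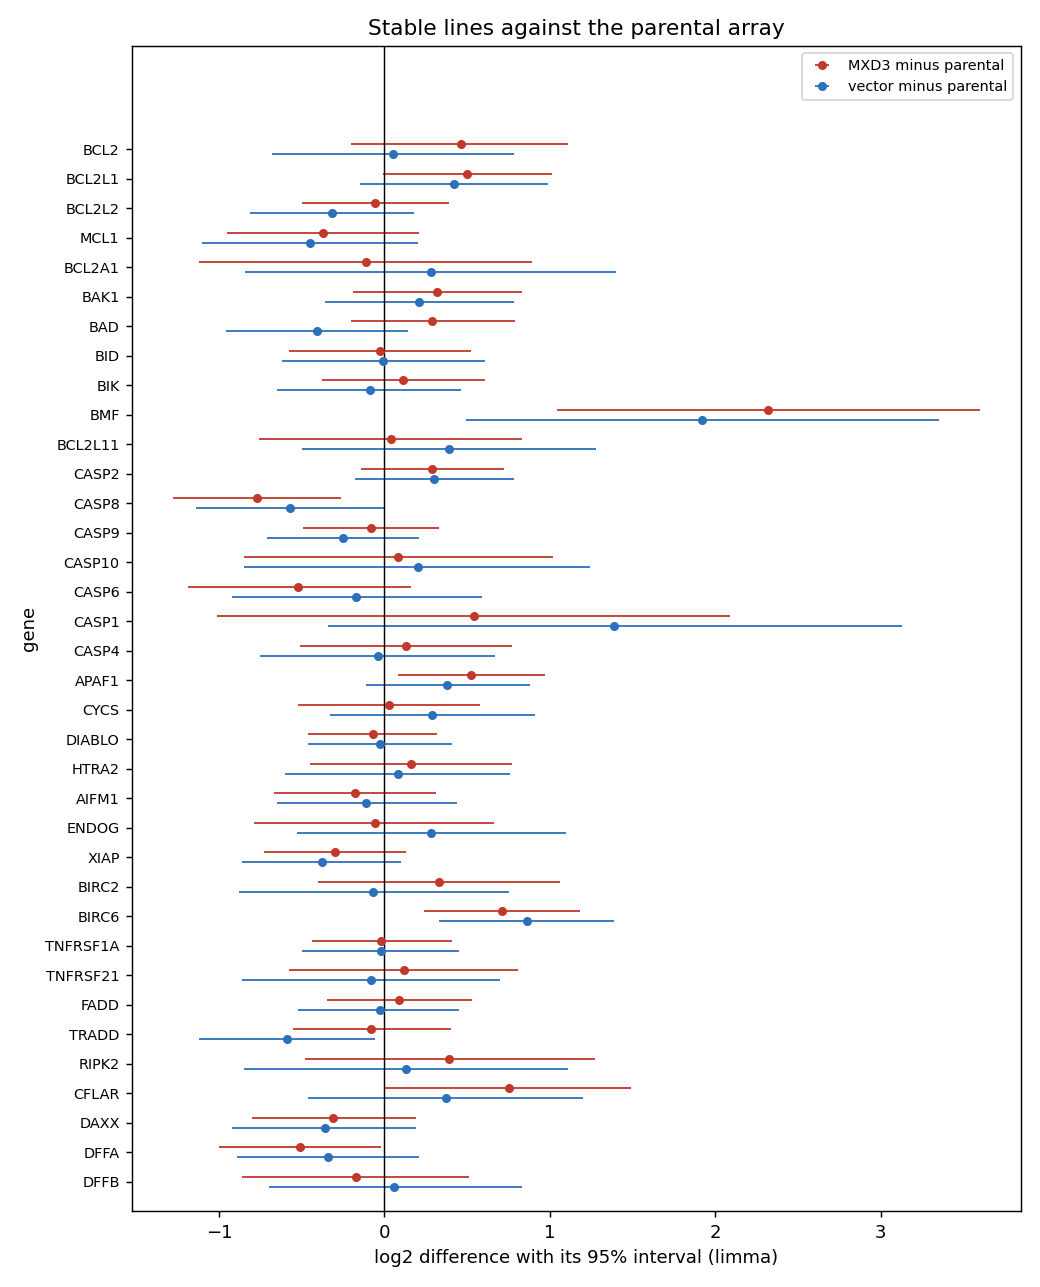
Log2 difference of each apoptosis gene (rows) from the single parental array, for the MXD3 lines (red) and the vector lines (blue), as points with 95% intervals from limma, unadjusted for the number of genes. BMF (2.32 and 1.92) and BIRC6 (0.71 and 0.86) lie to the right of 0 and CASP8 (-0.77 and -0.57) to the left for both kinds of line.

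A wider list of 58 apoptosis genes that are not members was read in the same fits. Probes were named for 53 of them and 42 were kept. Against all controls 22 (52.4%, against 50.5% of all genes) had higher and 20 lower means in the MXD3 lines, with a median log2 difference of 0.02. By limma 0 passed the threshold, against 0% of all genes, and 4 (9.52%) had an unadjusted p under 0.05, against 11.7%. The arrays of 4.76% of the list did not overlap, against 7.98% of all genes. Against the vector lines 23 (54.8%, against 50.6% of all genes) had higher and 19 lower means, and 0 passed, against 0% of all genes.

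MLKL, which forms the membrane pore of necroptosis, had the smallest p in the wider list. It read 11.50, 11.34, 11.33, 11.09 and 11.35 in the MXD3 lines, against 11.89 and 11.72 in vector lines and 12.15 in parental cells. All 5 MXD3 lines lay below all controls, by a log2 difference of -0.60 ± 0.14 (SE, limma adjusted p = 0.283). TNFSF12 (TWEAK), a TNF family ligand, read 6.64, 6.82, 6.43, 6.58 and 6.38 in the MXD3 lines, against 6.40 and 5.13 in vector lines and 6.09 in parental cells. Its difference of 0.70 ± 0.26 rests largely on the low vector line 2, and MXD3 line 5 lay below vector line 1. The ubiquitin ligase TRAF6 was at 0.32 ± 0.13, with all MXD3 lines above all controls, and PEA15, which binds FADD and caspase-8, was at 0.40 ± 0.15. Among genes that work directly with the members, BAX was at 0.45 ± 0.23 and TNFSF10 (TRAIL) at 0.68 ± 0.34 (SE, limma adjusted p = 0.472 and 0.468). Both overlapped the controls. The BH3-only genes BBC3 and PMAIP1 were at -0.15 and -0.11.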

How the data were processed

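The deposited table holds, for every probe and array, a linear bead intensity and a detection p-value. The submitters' processing notes name BeadStudio, with no version. Arrays had minimum intensities of 88.4 to 118. The deposited series matrix, a straight line of the same intensity table on each array to within 0.0121, served as an alternative. The number of arrays limits the precision.

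limma's neqc (offset 16; limma 3.58.1, R 4.3.3) estimated the background from the detection p-values, applied quantile normalization and took log2. Symbols came from the platform annotation, updated through Entrez IDs with RefSeq (GRCh38.p14): 19715 probes named 1 gene, 0 several and 2469 none. Groups were compared with lmFit and eBayes, two-sided, and p-values were adjusted over the 12162 genes by Benjamini-Hochberg. MXD3 was set against all controls in a 2-group fit, other comparisons came from a 3-group fit, and 95% intervals are unadjusted. The code was tested on simulated data.

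The members and lists were chosen with earlier results of these data known. Array values are given for MXD3 and for members past the threshold, separated from the controls, under an unadjusted p of 0.05 against all controls or the vector lines, among the 5 largest SDs or among the 4 largest vector-parental differences. Members whose probes differ in sign are given by probe. CASP6, CASP8, CASP9, BIRC2, CASP4, APAF1, DFFA and TNFSF12 were given by array or range, and BAX, TNFSF10, BBC3 and PMAIP1 named, after their values were seen. Alternatives covered background, scaling, filter, probe, variance model, a block and leaving out each array.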

Additional observations from a re-analysis of the deposited data

Results flagged for a closer look

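CASP6 in MXD3 line 1 stood apart from the other MXD3 lines. It read 9.53 there, against 8.84 to 8.97 in the other 4, a gap of 0.808 of the whole range, above Dixon's critical value of 0.71 for 5 samples. It was 1 of 37 genes examined, MXD3 included, and chance flags about 1 in 20 groups. The second CASP6 probe read 8.65 in MXD3 line 1 and 8.31 to 8.68 in the others.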

How the results depend on the processing

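No member passed the threshold under any alternative run, in any of the 4 comparisons, and no log2 difference of a single member followed across alternatives changed sign. Those followed were the members with an unadjusted p under 0.05 in a comparison, those of largest difference between vector lines and parental array, and CASP6, CASP8 and BMF. Against all controls between 0 and 1 of all genes passed in these runs, and hardly any gene passed in the other comparisons. The count of 0 members therefore says nothing particular about them. The adjusted p of BAD ran from 0.189 to 0.587 against all controls and from 0.321 to 1 against the vector lines. The members' median log2 difference against the vector and parental arrays was 0.13 with the series matrix values and 0.12 with array medians set equal, and 0.03 to 0.09 with each array left out. Against the vector lines it was 0.13 with array medians set equal and -0.01 to 0.10 with each array left out. For the vector lines against the parental array it was -0.08 with array medians set equal, -0.05 with the mean of all kept probes and -0.01 to 0.04 with each array left out. The cause was not tested. Without background correction differences of dim probes shrank: BMF was 0.47 against all controls and 0.95 in the MXD3 lines against the parental array, and TRADD was 0.26 against the vector lines. The SDs among the MXD3 lines of CASP1, CASP10 and BCL2A1 were then 0.54, 0.16 and 0.16. With the series matrix values BMF was 1.37 and 3.23, and these SDs of CASP10 and BCL2A1 were 0.75 and 0.88. The labels give the MXD3 and vector lines shared numbers, and the lines were not treated as pairs in the main fits. The deviations of same-numbered lines correlated at -0.31 and -0.18, and those of differently numbered lines at 0.31 and 0.18. With 2 vector lines their deviations mirror each other, so these values cannot decide whether the numbers mark pairs. With the replicate block, 0 members passed, the members' median against the vector lines was 0.00, BAD was at 0.65 and TRADD at 0.56. The MXD3 probe difference ran from 0.22 to 0.70 over the alternatives. The stricter detection filter removed BCL2A1 and left 35 members. Signal near background limits BCL2A1, CASP10, BCL2L11 and, in the parental cells, BMF.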
